A study of Mus musculus with 6 samples.

Results

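Transcripts of 10 genes of the fibroblast growth factor (FGF) system were followed in brown preadipocytes and in the adipocytes formed from them. The genes were taken by symbol from the 26264 symbols in each count file and comprise the receptors Fgfr1, Fgfr2, Fgfr3, Fgfr4 and Fgfrl1, the co-receptor Klb and the ligands Fgf1, Fgf2, Fgf7 and Fgf10. All 10 symbols were present in the 6 libraries, which were made by bulk RNA sequencing with 1 library per condition. The cells were immortalized preadipocytes from interscapular brown adipose tissue of wild-type Bl6N mice, a line carrying SV40 large T antigen. They had been left untreated or pretreated with FGF8 (5.5 nM) for 48 h, and were harvested at the end of the pretreatment (day 0) or at day 3 or day 9 of the adipogenic protocol that followed. Untreated and FGF8-pretreated cells therefore share the immortalization and, after day 0, the same differentiation media. The last time point carries the label D7 and is called day 9 here, the name used in the study's text. Controls are untreated by label and vehicle-treated in the study's methods, and the growth protocol deposited with the samples describes primary white cells, unlike the sample titles.

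FGFs are secreted proteins that bind receptor tyrosine kinases at the cell surface together with heparan sulfate, the sulfated sugar chains of surface proteoglycans. Ligand binding pairs the receptors, activates their kinases and, through the adaptor Frs2, the Ras and ERK cascade. Splicing of the receptors into IIIb and IIIc forms sets which ligands they accept: Fgf7 and Fgf10 act on IIIb forms, which are typical of epithelia, whereas FGF8 acts mainly on IIIc forms, which are typical of mesenchymal cells such as preadipocytes. Endocrine FGFs, such as Fgf21, bind heparan sulfate weakly and need a klotho protein to engage a receptor, and adipocytes are known for using Klb with Fgfr1. Counts per gene do not separate the IIIb from the IIIc forms.

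The libraries held between 16403254 and 38551551 counts. Across the 3 days, normalized counts of 7 adipocyte markers summed to 521 to 731 at day 0 and to 243040 or more later. The 6 brown adipocyte markers summed to 127600 without and 151610 with FGF8 at day 9, of which Ucp1 made up 91306 and 99587. Cidea, Ppargc1a, Elovl3 and Cox7a1 also rose from day 0 to day 9. Dio2 fell, from 304 to 26.3 without and from 60.2 to 18.7 with FGF8. Of the skeletal muscle markers, Myod1 and Myf5 were at 0 in every library and Myog at 3 counts or fewer, whereas Acta1 had 0 counts at day 0 and 15 to 60 later. Of the macrophage markers, Adgre1 was at 0 in every library, whereas Cd68 had 27 to 141, Cd14 32 to 128 and Csf1r 4 to 61 counts. The 4 epithelial markers summed to 11.8 normalized counts without and 154 with FGF8 at day 0, and to 8.52 or less later. At day 0, Epcam had 7 against 86 counts and Krt18 1 against 28, and Krt8 and Cdh1 had 3 or fewer. The day 0 libraries stood apart from the others in Xist, the RNA that coats the inactive X chromosome, with 2530 counts without and 5837 with FGF8 against 7 to 26 in the other 4 libraries. At the same time, 4 Y-linked genes summed to between 7029.6 and 9685 normalized counts in all 6 libraries. What separates the day 0 libraries was not tested, and every comparison with day 0 below rests on them. For the 9 members tested, the difference from day 3 to day 9, which does not use them, is also given. In the day 0 pair, 8 of 10 known FGF targets and feedback genes were at least 2-fold higher with FGF8, beside 7.27% of 12657 genes. Among the 8 were Spry4 (41 against 828 counts), Dusp6 (102 against 1766 counts) and Ucp1 (0 against 1037 counts). Spry1 and Spry2 were not, with 610 against 516 and 2138.7 against 2414.5 normalized counts.

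Values below are counts divided by the library's size factor, called normalized counts. Differences between genes are given only per kilobase (kb) of annotated exon. Each fold is a ratio of normalized counts of 2 libraries, and its 95% interval covers counting error only, because there is no replicate of a condition and thus no test of FGF8 within a day. A gene was called 2-fold higher or lower when log2(normalized count + 1) differed by 1 or more and the pair averaged 20 normalized counts or more. Because RNA was taken from whole cultures, fewer cells expressing a gene and less of its RNA per cell cannot be told apart.

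**Figure D1:**
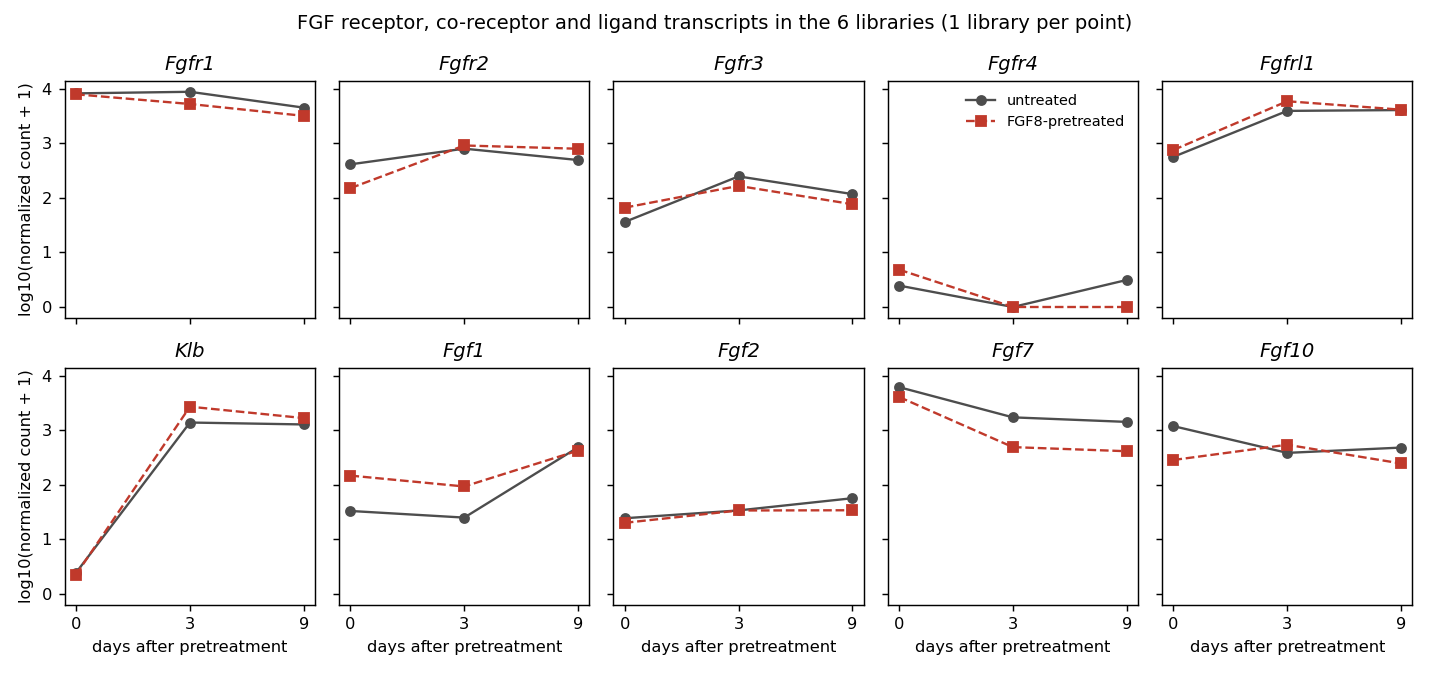
Normalized counts of the 10 genes, as log10(normalized count + 1), at days 0, 3 and 9 after the pretreatment, with 1 library per point; black circles are untreated and red squares FGF8-pretreated cultures. Klb goes from 1 count at day 0 to over 1000 counts, Fgf7 lies below the untreated line at each day, and Fgfr4 stays at 3 counts or fewer.

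Fgfr1 was the predominant receptor with a kinase domain in every library. It is the receptor through which FGF8 and, with Klb, Fgf21 act on adipose cells. Of the summed level per kb of Fgfr1 to Fgfr4, it made up 94.1% in untreated and 96.7% in FGF8-pretreated preadipocytes, and 86.1% and 76.0% at day 9. With the longest or the canonical transcript in place of merged exons as length, these shares stayed within 76.0% and 96.9% over the 6 libraries. Fgfr1 (GRCm39 chromosome 8, 26008745 to 26066824, plus strand) had 8239, 8807 and 4510.3 normalized counts at days 0, 3 and 9 without pretreatment. The FGF8 libraries had 7921, 5260.3 and 3188. The libraries of both treatments were thus lowest at day 9. With FGF8, Fgfr1 was 1.67-fold lower at day 3 (95% counting interval 1.62 to 1.73) and 1.42-fold lower at day 9 (1.36 to 1.47). At day 0 the log2 difference was -0.057 (-0.11 to -0.0044), and 0.0008 when scaled by total counts. In edgeR, with the treatments standing in for replicates, Fgfr1 fell by day 9 against day 0 (log2 fold change -1.06 ± 0.23 SE, adjusted p = 0.0163, lower in 2 of 2 treatments), a call lost without either day 9 library (adjusted p = 0.0999 and 0.140). The day 9 call was also lost in edgeR without the treatment block (adjusted p = 0.0604). From day 3 to day 9, Fgfr1 was 1.95-fold lower without and 1.65-fold lower with pretreatment. At day 3, the change from day 0 was -0.19 ± 0.23 (adjusted p = 0.530), and the treatments went opposite ways.

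Fgfr2, the main receptor for Fgf7 and Fgf10 in epithelia, was the second of the kinase receptors (chromosome 7, 129763471 to 129868272 by its canonical transcript, minus strand). Untreated cells had 411, 798 and 493 normalized counts at days 0, 3 and 9, and FGF8-pretreated cells 149.8, 913 and 795. The FGF8 library was therefore the lowest of all at day 0 and above its control later. The FGF8 library held 2.75-fold fewer counts at day 0 (95% counting interval 2.21 to 3.44), 1.14-fold more at day 3 (1.04 to 1.26) and 1.61-fold more at day 9 (1.46 to 1.78). Its share of the kinase receptors per kb was 2.06% in FGF8-pretreated preadipocytes and 21.4% in the adipocytes derived from them, against 5.29% and 10.6% without pretreatment. The change from day 0 over both treatments was 1.71 ± 0.55 at day 3 (adjusted p = 0.0550 in edgeR, higher in 2 of 2) and 1.296 ± 0.55 at day 9 (adjusted p = 0.102), neither of which passed the threshold. The day 3 value moved to 2.80 without the untreated and to 0.90 without the FGF8 library of day 0 (adjusted p = 5.78e-05 and 0.0217), and without either day 3 library the adjusted p was 0.144 or 0.220. The day 3 value also passed in DESeq2 (adjusted p = 0.00838) and with no filter on low counts (0.0414). The day 9 value passed in DESeq2 (adjusted p = 0.0387). It moved to 2.33 without the untreated and to 0.43 without the FGF8 library of day 0. From day 3 to day 9, Fgfr2 was 1.62-fold lower without and 1.15-fold lower with pretreatment.

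Fgfr3, a receptor best known from cartilage, had fewer counts (chromosome 5, 33879067 to 33894412, plus strand). Normalized counts were 35.3, 247 and 116 in untreated and 65.3, 165 and 75.6 in FGF8-pretreated cells, highest at day 3 in both. It rose by day 3 (log2 fold change 2.05 ± 0.50 SE, edgeR adjusted p = 0.0266, higher in 2 of 2), which was lost without either day 3 library (adjusted p = 0.137 and 0.114). At day 9 the difference from day 0 was 0.93 ± 0.49 (adjusted p = 0.166), and day 9 lay 2.12-fold and 2.18-fold below day 3. With FGF8 it was 1.85-fold higher at day 0 (interval 1.12 to 3.15), where 24 and 51 counts were compared, and lower by log2 differences of -0.58 and -0.62 at days 3 and 9. About 13.1% of its exon bases overlap the transcript G630022F23Rik on the opposite strand. Fgfr4, the main FGF receptor of hepatocytes (chromosome 13, 55300453 to 55316572, plus strand), had 1, 0 and 3 counts in untreated and 3, 0 and 0 counts in FGF8-pretreated cells. A count of 0 allows up to 3, so every library lay at or under this limit and no fold is given.

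Fgfrl1, a receptor that binds FGFs but lacks the kinase domain, was low in preadipocytes and high in adipocytes (chromosome 5, 108842057 to 108858366, plus strand). Its normalized counts were 564, 3933 and 4073 in untreated cells and 754, 5912 and 4142 in FGF8-pretreated cells. Both day 0 libraries lay below all 4 later ones. It rose by day 3 (2.95 ± 0.20, edgeR adjusted p = 0.00249) and by day 9 (2.70 ± 0.19, adjusted p = 0.00183), higher in 2 of 2 treatments each time, and kept both calls in every alternative run. From day 3 to day 9, it differed 1.04-fold in untreated cells (interval 0.991 to 1.08) and was 1.43-fold lower in FGF8-pretreated cells. Pretreated cells had a log2 difference of 0.42 above untreated cells at day 0 (interval 0.23 to 0.61) and 0.59 at day 3 (0.53 to 0.65), whereas the day 9 pair differed by 0.024 (-0.03 to 0.079).

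Klb encodes beta-klotho, the co-receptor that lets Fgfr1 respond to Fgf21 (chromosome 5, 65505657 to 65541350, plus strand). Its transcript was at the limit of detection in preadipocytes, with 1 count in each day 0 library, and abundant in the adipocytes. The raw counts were 1093 and 1807 in untreated and 3871 and 2064 in FGF8-pretreated cells at days 3 and 9, or 1391 and 1283 against 2717 and 1678 normalized counts. The rise from 1 count was 947-fold by day 3 in untreated cells (counting interval 170 to 37440) and 2122-fold in FGF8-pretreated cells (381 to 83854). edgeR called it higher at day 3 (adjusted p = 0.00192) and at day 9 (adjusted p = 0.00135), in 2 of 2 treatments and in each alternative. From day 3 to day 9 it was 1.08-fold lower in untreated (1.01 to 1.17) and 1.62-fold lower in FGF8-pretreated cells (1.53 to 1.71). Pretreated cells had 1.95-fold more Klb at day 3 (1.83 to 2.09), below the 2-fold rule, and 1.31-fold more at day 9 (1.23 to 1.39). Along with this, the summed normalized counts of the 7 adipocyte markers were 1.94-fold higher with FGF8 at day 3, with 7 of 7 genes higher, and 1.16-fold higher at day 9. Their part in the Klb difference was not tested. On the opposite strand, Rpl9 overlaps 13.1% of the exon bases of Klb. Rpl9 had 9656 and 9693 normalized counts in the day 0 libraries, where Klb had 1 count each.

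The promoter sequences of the genes that rose by both later days, Klb and Fgfrl1, are shown with those of the genes that fell by day 9, Fgfr1 and Fgf7. Each is the 250 bases before the start of the canonical transcript in GRCm39, read 5' to 3' on the plus strand, with matches to a searched motif on either strand in capitals. They lie at chr5:65505407-65505656 (Klb), chr5:108841807-108842056 (Fgfrl1), chr8:26008495-26008744 (Fgfr1) and chr2:125876328-125876577 (Fgf7).
Klb: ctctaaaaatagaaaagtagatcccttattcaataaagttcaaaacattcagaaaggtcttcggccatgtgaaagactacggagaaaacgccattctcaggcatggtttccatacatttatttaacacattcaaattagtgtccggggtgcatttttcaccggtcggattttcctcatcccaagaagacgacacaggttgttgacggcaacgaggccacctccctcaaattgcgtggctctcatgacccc
Fgfrl1: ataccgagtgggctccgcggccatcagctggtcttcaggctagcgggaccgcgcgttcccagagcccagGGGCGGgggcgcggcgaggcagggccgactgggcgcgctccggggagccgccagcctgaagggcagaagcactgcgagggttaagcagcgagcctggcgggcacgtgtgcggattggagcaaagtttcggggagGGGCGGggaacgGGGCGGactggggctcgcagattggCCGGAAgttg
Fgfr1: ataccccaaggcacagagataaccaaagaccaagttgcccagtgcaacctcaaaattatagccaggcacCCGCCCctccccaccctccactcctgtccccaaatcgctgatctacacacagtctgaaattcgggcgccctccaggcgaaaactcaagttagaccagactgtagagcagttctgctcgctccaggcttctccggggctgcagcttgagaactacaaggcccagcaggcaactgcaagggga
Fgf7: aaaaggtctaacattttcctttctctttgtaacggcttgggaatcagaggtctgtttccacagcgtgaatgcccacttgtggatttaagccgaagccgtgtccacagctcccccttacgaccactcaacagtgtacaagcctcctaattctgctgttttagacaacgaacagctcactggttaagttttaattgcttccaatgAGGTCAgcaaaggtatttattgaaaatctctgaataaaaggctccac
For C/EBP factors, which drive adipogenesis, the letters TTGCNNAA were searched, and 9.34% of 21751 promoters of this length held them. For nuclear receptors the core letters AGGTCA were used, present in 13.1% of those promoters. The letters CCGGAA, bound by ETS factors, were present in 12.4%. For AP-1 the search was for TGANTCA, present in 6.17%. The GC box GGGCGG was in 36.3% of the promoters, and the TATA box, searched as TATAAA, in 11.9%. The Klb window held none of them, and its 44.0% of G and C lay below the median of 53.2%, as did the 43.6% of Fgf7. Fgfrl1 differed in base composition, with 71.2% of G and C, 27 CG dinucleotides, 3 GC boxes and 1 ETS match, and 22 of its bases belong to exons of other Fgfrl1 transcripts. The Fgfr1 window held 1 GC box and that of Fgf7 1 AGGTCA match. Klb and Fgfrl1, which rose together, shared no searched motif. These matches describe the letters alone.

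Among the 4 ligands, Fgf7, also known as keratinocyte growth factor, made up 85.0% of the summed level per kb in untreated and 92.3% in FGF8-pretreated preadipocytes. It is a paracrine ligand that mesenchymal cells secrete towards epithelia. The gene (chromosome 2, 125876578 to 125933408, plus strand) had 6200.1, 1731 and 1429 normalized counts in untreated cells and 4095, 492 and 414 in FGF8-pretreated cells. Every FGF8 library lay below the untreated library of its day, and all 4 later libraries lay below both day 0 libraries. The count with FGF8 was lower by 1.51-fold at day 0 (interval 1.45 to 1.59), 3.52-fold at day 3 (3.21 to 3.86) and 3.45-fold at day 9 (3.13 to 3.81). In the edgeR fit of an effect shared by the days, the difference was -1.42 ± 0.29 (adjusted p = 0.0956, lower on 3 of 3 days) and did not pass. It passed in DESeq2 (adjusted p = 0.000255) and without day 0 (-1.83, adjusted p = 0.000728), but not without day 3 (adjusted p = 0.378), without day 9 (0.334) or without the block (-0.93, adjusted p = 0.99979). With differentiation, Fgf7 fell by day 3 (-2.42 ± 0.36, edgeR adjusted p = 0.00839) and by day 9 (-2.71 ± 0.37, adjusted p = 0.00504), lower in 2 of 2 treatments. The day 3 call was lost without the FGF8 library of day 3 (adjusted p = 0.0714) and both were lost without the treatment block (adjusted p = 0.0968 and 0.0620). Within each treatment, day 9 was 1.21-fold and 1.19-fold lower than day 3. Alongside, 7 preadipocyte markers such as Pdgfra and Dlk1 summed to 3.95-fold, 3.67-fold and 4.34-fold less with FGF8 at days 0, 3 and 9, and 6 of 7, 6 of 6 and 7 of 7 of those above 3 counts were lower. The summed normalized counts of 8 macrophage markers, 139 to 313, were 1.66-fold, 1.77-fold and 1.66-fold lower with FGF8. Of the macrophage markers above 3 counts, 4 of 5, 3 of 4 and 4 of 5 were lower at days 0, 3 and 9, with Mrc1 higher at day 0 and Cd68 at the later days, and Ptprc had no more than 1 count. Kdr and Tek held most of the endothelial marker counts, a smaller part of them in the FGF8 libraries, and Cdh5 had 7 counts or fewer. The 5 endothelial markers summed to 37.4 to 1625 and were 21.5-fold, 5.67-fold and 5.45-fold lower with FGF8. Of those above 3 counts in either library, 2 were lower and 2 higher at day 0 (Pecam1, 1 against 10 counts, and Cdh5, 3 against 7), and 4 of 4 were lower at each later day. The part of these markers in the Fgf7 difference was not tested.

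Fgf10, a paracrine ligand of the same receptor forms known for a role in adipogenesis, did not hold a direction between days (chromosome 13, 118850915 to 118928672, plus strand). Untreated cells had 1196, 386 and 483 normalized counts, and FGF8-pretreated cells 285, 544 and 246. The untreated day 0 library was the highest, and the FGF8 library exceeded its control only at day 3. With FGF8 there were 4.19-fold fewer counts at day 0 (interval 3.61 to 4.88), 1.41-fold more at day 3 (1.23 to 1.62) and 1.96-fold fewer at day 9 (1.71 to 2.25). Since Fgf7 was low there, Fgf10 held 46.3% of the ligands' level per kb in the FGF8 library of day 3, beside 47.1% for Fgf7, and the counting interval of their ratio included 1. That holds for merged exons only, since with canonical transcripts the shares were 38.8% and 52.6%. Over both treatments its change from day 0 was -0.27 ± 0.62 at day 3 (edgeR adjusted p = 0.736) and -0.85 ± 0.59 at day 9 (adjusted p = 0.275). Day 9 was 1.25-fold above day 3 in untreated and 2.21-fold below it in FGF8-pretreated cells.

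Fgf1, a ligand that binds all FGF receptors and is made in adipocytes, was low until day 9. Untreated cells had 32.3, 24.2 and 488 normalized counts and FGF8-pretreated cells 147, 92.7 and 425, so that the day 9 libraries were highest for both treatments. It was 4.56-fold higher with FGF8 at day 0 (22 against 115 counts, interval 2.87 to 7.55) and 3.83-fold higher at day 3 (19 against 132 counts, 2.36 to 6.57). The day 9 pair was 1.15-fold lower with FGF8 (1.02 to 1.29). Fgf1 rose by day 9 against day 0 (2.80 ± 0.68, edgeR adjusted p = 0.0222, higher in 2 of 2), a call lost without the untreated day 9 library (1.60, adjusted p = 0.0858) and without the block (adjusted p = 0.0790). Without the day 0 libraries, day 9 exceeded day 3 by 20.2-fold in untreated (12.8 to 33.8) and 4.59-fold in FGF8-pretreated cells (3.78 to 5.60). At day 9 it made up 11.8% of the ligands' level per kb in untreated and 25.2% in FGF8-pretreated cells, or up to 18.1% and 35.9% with other transcript lengths.

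Fgf2, basic FGF, a ligand of several receptors including Fgfr1, was the least abundant of the 4 ligands per kb of merged exons in 5 of 6 libraries (chromosome 3, 37402495 to 37464257, plus strand). The exception was untreated day 3, where Fgf2 lay below Fgf1 with the longest (5.24 against 5.42 per kb) or canonical transcript (5.27 against 5.70). The raw counts of Fgf2 were 16, 26 and 79 in untreated and 15, 47 and 41 in FGF8-pretreated cells, or 23.5, 33.1 and 56.1 against 19.2, 33.0 and 33.3 normalized counts. The ratio of FGF8 to untreated was 0.817 at day 0, with a counting interval from 0.376 to 1.76, and 0.997 at day 3, from 0.605 to 1.68. No difference was detectable within these intervals at this depth. The day 9 pair was 1.68-fold lower with FGF8 (1.14 to 2.52). Against day 0 over both treatments it differed by 0.71 ± 0.43 at day 3 (edgeR adjusted p = 0.222) and 1.08 ± 0.42 at day 9 (adjusted p = 0.0831). The ratio of day 9 to day 3 was 1.69 in untreated (1.08 to 2.75) and 1.01 in FGF8-pretreated cells (0.648 to 1.57). Of the exon bases of Fgf2, 44.9% overlap Nudt6 on the opposite strand, which had 48, 163 and 489 counts in untreated and 99, 446 and 427 counts in FGF8-pretreated cells. The strand setting of the counting and its handling of reads shared by overlapping genes are not given in the sources used here. Whether the overlap added antisense reads to the counts of Fgf2 or removed reads from them cannot be told.

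**Figure D2:**
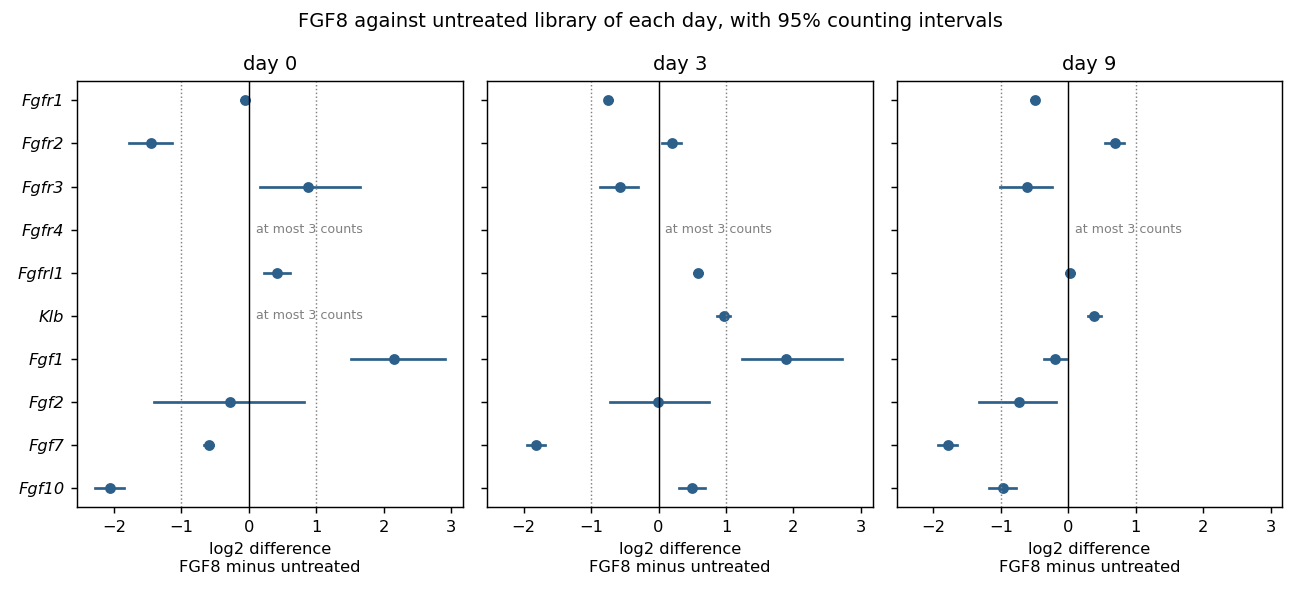
Difference of log2(normalized count + 1), FGF8 minus untreated, for the 10 genes at days 0, 3 and 9; points are differences between 2 libraries, bars the 95% counting intervals, and dotted lines mark 2-fold. Only Fgf7 lies past 2-fold lower at both days 3 and 9, Fgf1 lies past 2-fold higher at days 0 and 3, and Fgfr2 and Fgf10 lie past 2-fold lower at day 0.

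The members past 2-fold at each day are given beside the share of all genes. At day 0, 8 of the 10 genes passed the filter on low counts. Fgf1 was 2-fold higher and Fgfr2 and Fgf10 were 2-fold lower, while 18.1% of 12657 genes were past 2-fold, 7.27% higher and 10.8% lower. At day 3, 9 genes passed, with Fgf1 higher and Fgf7 lower (15.9% of all genes, 3.8% higher and 12.1% lower). At day 9, 9 genes passed, with Fgf7 lower (9.85% of all genes, 1.12% higher and 8.74% lower). The median log2 difference of the genes that passed was -0.17, 0.19 and -0.50 at the 3 days, beside 0.054, 0.081 and 0.083 over all genes. In the edgeR fit of an effect shared by the days, 0 of 9 members tested passed, 2 had an unadjusted p under 0.05 (Fgf7 and Klb), and 1.27% of 14569 genes passed, 0.0206% higher and 1.25% lower. DESeq2 called 1 member lower, Fgf7, and of 13787 genes it called 3.42% higher and 8.85% lower. Without the day 0 libraries, edgeR called Fgfr1 lower (-0.65, adjusted p = 0.0380), Fgf7 lower and Klb higher (0.65, adjusted p = 0.0372), beside 3.96% of 14367 genes higher and 11.6% lower.

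Differentiation moved more of them. By day 3, Klb, Fgfrl1 and Fgfr3 rose and Fgf7 fell among the 9 tested, while edgeR called 46.0% of all genes, 26.2% higher and 19.8% lower. By day 9, Klb, Fgfrl1 and Fgf1 rose and Fgf7 and Fgfr1 fell, and 54.0% of all genes were called, 29.2% higher and 24.8% lower. The counts of 4 and 5 of 9 thus lay near the share of all genes.

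**Figure D3:**
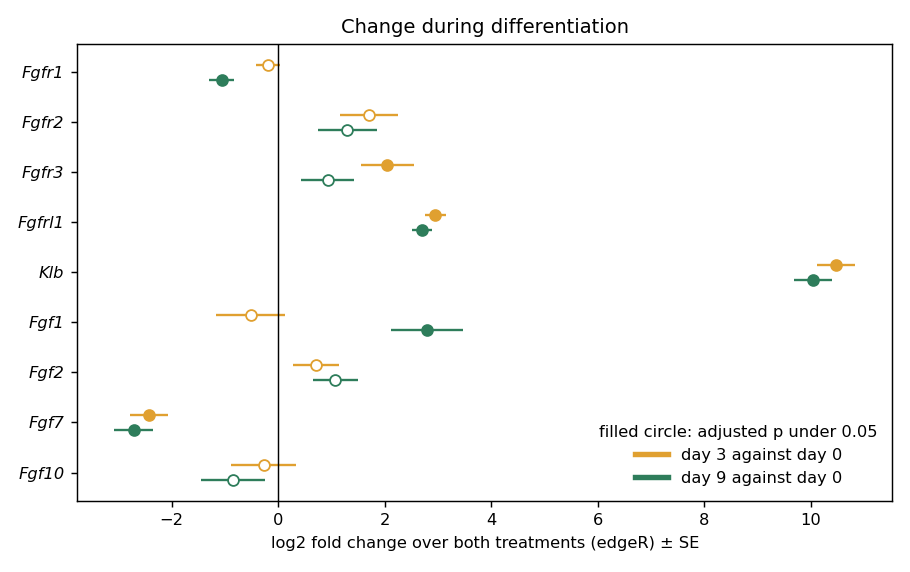
Log2 fold change ± SE from the edgeR fit over both treatments for the 9 genes tested, day 3 (yellow) and day 9 (green) against day 0; filled circles have an adjusted p under 0.05. Klb and Fgfrl1 lie to the right and Fgf7 to the left at both days; the position of Klb depends on the 1 count it had in each day 0 library.

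By level per kb of merged exons, the order of the 10 genes differed between preadipocytes and adipocytes. Fgf7 and Fgfr1 led at day 0 in both treatments, with 1410.1 and 645 normalized counts per kb in untreated and 931 and 620.1 in FGF8-pretreated preadipocytes. In untreated cells the highest were Fgfr1 at day 3 (689) and Fgfrl1 at day 9 (575). In FGF8-pretreated cells, Fgfrl1 (835 and 585) and Klb (539 and 333) came first and second at days 3 and 9, above Fgfr1 (412 and 249.5). Neighbours whose ratio had a counting interval that included 1 were Fgfr3 and Fgf1, Fgf1 and Fgf2, and Fgfr4 and Klb in untreated day 0 cells, Fgf10 and Fgfr2, and Fgf2 and Fgf1 in untreated day 3 cells, and Fgf1 and Fgf10 in FGF8-pretreated day 9 cells. In FGF8-pretreated cells they were also Fgf7 and Fgf10 at day 3, and Fgf2 and Fgfr4, and Fgfr4 and Klb at day 0. The order of Fgfr1 depends on its length, since its merged exons (12774 bases, from 29 transcripts) are longer than its canonical transcript (6139 bases). With canonical lengths, Fgfr1 led untreated cells at day 9 and came before Klb in FGF8-pretreated cells at days 3 and 9, and with the longest transcript it also led FGF8-pretreated preadipocytes.

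**Figure D4:**
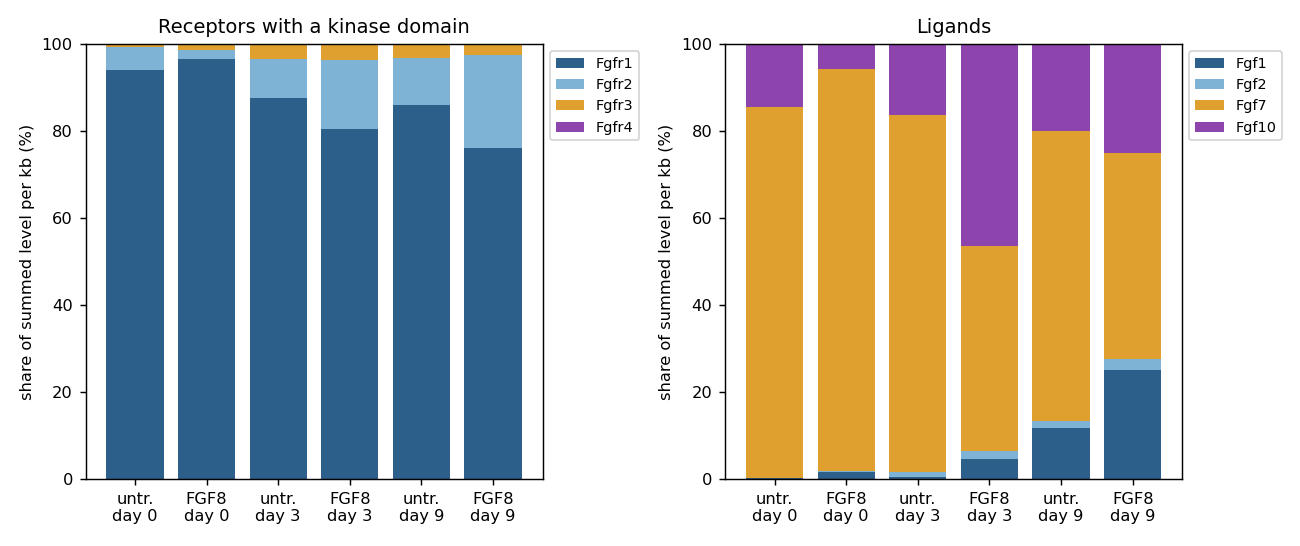
Share of the summed level per kb (%) among the 4 receptors with a kinase domain (left) and the 4 ligands (right), in each of the 6 libraries, from 0 to 100%. Fgfr1 fills 76.0% to 96.7% of the receptor bars, and the Fgf7 share goes from 85.0% and 92.3% at day 0 to 66.5% and 47.3% at day 9.

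The other secreted FGFs were sparse. Of 14 listed, 3 had enough counts to be tested with edgeR (Fgf18, Fgf21 and Fgf22), and Fgf8 itself had 0 counts in 5 libraries and 1 count in the untreated day 9 library. Fgf21, the endocrine ligand of the Fgfr1 and Klb complex, had 2, 123 and 800 counts in untreated and 64, 318 and 692 counts in FGF8-pretreated cells. It rose by day 9 against day 0 (4.16 ± 1.01, edgeR adjusted p = 0.0228, higher in 2 of 2), a call lost without either day 9 library (adjusted p = 0.0804 and 0.0530). At day 0 the FGF8 to untreated ratio was 27.9, with a wide counting interval of 7.41 to 235. The klotho relative Lctl had 1, 301 and 5790 counts against 0, 1322 and 10729 counts, and edgeR called it higher at day 3 (adjusted p = 0.0021) and day 9 (adjusted p = 0.00135). Klotho itself, Kl, had at most 2 counts in any library. Fgf11, an intracellular FGF relative, also rose by day 9 (2.12 ± 0.58, edgeR adjusted p = 0.0311), and this was lost without either day 9 library (adjusted p = 0.125 and 0.170).

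Of 12 heparan sulfate proteoglycan core genes, 10 were above the filter in each pair. With FGF8, 1 was 2-fold higher and 2 lower at day 0, 4 were lower at day 3 and 2 lower at day 9. Over all genes, 7.27% were higher and 10.8% lower at day 0, and 12.1% and 8.74% lower at days 3 and 9. The medians of the core genes were -0.28, -0.66 and -0.65, beside 0.054, 0.081 and 0.083 over all genes. Sdc3, the core protein syndecan-3, was 2-fold lower at days 3 and 9 (1035 against 321 and 1636 against 726 normalized counts). At day 0 it was also lower, by just under the 2-fold rule (6535 against 3268). In the 20 genes of heparan sulfate synthesis and editing, edgeR called 7 of 17 tested lower and 1 higher by day 3, and 12 lower and 1 higher by day 9, where 19.8% and 24.8% of all genes were called lower and 26.2% and 29.2% higher. Among those lower at day 9 were Ext1, a chain polymerase (-1.22 ± 0.16, adjusted p = 0.00500), and Hs2st1, a 2-O-sulfotransferase (-1.42 ± 0.23, adjusted p = 0.00771), both lost without either day 9 library (adjusted p = 0.0553 and 0.0514 for Ext1, 0.0506 and 0.0729 for Hs2st1). Extl1, an exostosin relative, was the one called higher (4.56 ± 0.54, adjusted p = 0.00381). With FGF8, 3 of 17 above the filter were 2-fold higher and 3 lower at day 0. At day 3, 1 of 14 was higher and 2 lower, and at day 9, 1 of 14 was higher and 3 lower. The shares of all genes were 7.27%, 3.8% and 1.12% higher and 10.8%, 12.1% and 8.74% lower. Higher at day 0 were, among others, Ndst3 (39.7 against 904 normalized counts) and Glce (2637 against 7607). Among those lower was Sulf2, an enzyme that removes 6-O-sulfate from the chains. It had 4082 normalized counts in untreated and 123 in FGF8-pretreated preadipocytes, a 33.2-fold difference (interval 27.1 to 41.1). Its values were 1.51-fold and 1.54-fold lower at days 3 and 9.

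Of 12 receptor adaptors and proximal signalling genes, all 12 passed the filter. With FGF8, 1 was 2-fold lower at day 0, beside 10.8% of all genes, and 0 at the later days, beside 12.1% and 8.74%. Their medians lay between -0.12 and 0.056, and those of all genes between 0.054 and 0.083. By day 9, edgeR called 4 lower, among them Plcg1, a phospholipase bound by activated receptors (-0.68 ± 0.18, adjusted p = 0.0297), and 1 higher, Frs3 (1.17 ± 0.31, adjusted p = 0.0296), beside 24.8% lower and 29.2% higher of all genes. The Plcg1 and Frs3 calls were lost in 3 of 8 alternatives each, with adjusted p up to 0.182 and 0.212. Among 12 other klotho, FGF-binding and receptor-modulating genes, 2 of 9 above the filter were 2-fold lower with FGF8 and 0 higher at day 0. At day 3, 3 of 9 were lower and 1 higher, and at day 9, 3 of 10 were lower and 2 higher. The shares of all genes were 10.8%, 12.1% and 8.74% lower and 7.27%, 3.8% and 1.12% higher. For FGF8 over the days, 10 of the 12 were tested, and of all genes 1.25% were called lower and 0.0206% higher. Il17rd, an inhibitor of FGF receptor signalling also called Sef, was the only one of the 10 called (-1.71 ± 0.19, edgeR adjusted p = 0.0451). Its normalized counts were 618, 686 and 305 in untreated and 182, 258 and 82.1 in FGF8-pretreated cells, lower on 3 of 3 days. The call was lost in 4 of 7 alternatives, which were size factors in the edgeR fit (adjusted p = 0.0512), no block (0.99979), and leaving out day 3 (0.215) or day 9 (0.287).

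As a description over the 6 libraries, the genes whose log2 normalized counts followed Fgfr1 most closely were Ubqln2 (Pearson r = 0.996), Def6 (0.995), Mgat2 (0.991), Pdia4 (0.991) and Mier3 (0.988), and 88 of 11380 genes exceeded 0.95. For Fgf2 they included Slc48a1 (0.980), R3hdm4 (0.963), Gucy1b1 (0.960) and Gucy1a1 (0.958), and 6 of 11381 exceeded 0.95. The points share the days and treatments, and the 15 to 79 counts of Fgf2 limit the latter.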

How the data were processed

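Bulk RNA was sequenced in 6 libraries, 1 per condition, with groups taken from the sample labels. The counts were deposited by the authors as raw counts per gene symbol. Per the methods, stranded mRNA libraries were sequenced as paired reads of 150 bases, trimmed with TrimGalore, aligned to GRCm39 with HISAT2 and counted with featureCounts. Versions, annotation and strand setting are not given in the sources used here.

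Counts were divided by DESeq2 (1.42.0) size factors over the 6 libraries. Within a day, differences of log2(normalized count + 1) carry the 95% Clopper-Pearson interval of the count ratio. Effects shared over days or treatments were fitted with edgeR (4.0.16; R 4.3.3): quasi-likelihood test, TMM, filterByExpr, Benjamini-Hochberg over all genes, threshold 0.05, with the other factor as block and 2 residual degrees of freedom. Standard errors derive from the F statistic. Days and treatments stand in for replicates, so p-values rest on the spread between them. Lengths and positions come from GENCODE M39, in which 23897 (91.0%) of 26264 symbols were found. Sequences were read from the GRCm39 genome. The fits were tested on simulated counts with a fixed spread and changes that were the same in every block. FGF8 differences here varied between days, so that test checks the code and not the calls.

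The members, the gene lists and the rule for named genes (members, list genes, the 5 most correlated with Fgfr1 and Fgf2 at a mean of 100 or more, and overlapping genes) were chosen with earlier results of these data known. The value of 1 gene under this rule is not reported here. Xist and the Y-linked genes were added after their values were seen. The alternatives were TMM or total scaling, scaling within a pair, pseudocounts of 0.5 and 5, other filters, folds of 1.5 and 4, the Wald test of DESeq2, fits with no block, leaving out days or libraries, and other transcript lengths, of which the canonical transcript was added after the data were seen. Intervals and the limit of 3 counts for a 0 cover counting error only, which is wide below 100 counts.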

Additional observations from a re-analysis of the deposited data

Results flagged for a closer look

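Fgfr2, Fgf1 and Fgf10, each past 2-fold on at least 1 day, differed between FGF8-pretreated and untreated cells in opposite directions on different days, with counting intervals on either side of 0. For days 0, 3 and 9, the log2 differences of Fgfr2 were -1.45, 0.19 and 0.69, and those of Fgf1 were 2.15, 1.90 and -0.20. For Fgf10 they were -2.06, 0.50 and -0.97. Fgfr3 also changed sign, with 0.87, -0.58 and -0.62, and was past 2-fold on no day. Each value compares 1 library with 1 library, and the differences between days were not tested.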

How the results depend on the processing

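With 1 library per condition, counting error is the only error that can be given within a day, and the spread between cultures was not measured. It is wide at day 0 for Fgfr4 and Klb (1 to 3 counts), Fgf2, Fgf1 and Fgfr3. The labels carry no replicate numbers, and day or treatment served as the block. When pairs had to average 100 normalized counts, the genes 2-fold higher went from 1 to 0 at day 0 and at day 3. With a 1.5-fold rule, 2 genes were higher at day 0, 3 higher and 2 lower at day 3, and 1 higher and 4 lower at day 9. Fgf7 then joined Fgfr2 and Fgf10 as lower at day 0. With a 4-fold rule, 1 was lower at day 0, 0 were higher and 0 lower at day 3, and 0 were lower at day 9. The shares of all genes under the 1.5-fold and 4-fold rules are not given here, so these counts are not read against them. At day 9, total counts and size factors within the pair each gave 2 genes lower in place of 1, adding Fgf10. No filter on low counts also gave 2, but added Fgfr4, which had 3 against 0 counts. For the FGF8 effect shared by the days, DESeq2 gave 1 gene lower in place of 0, and leaving out a day gave 0 to 1 higher and 0 to 2 lower. Without a block, the genes lower at day 3 and at day 9 against day 0 went to 0. Leaving out 1 library gave 0 to 2 genes lower at day 3 and 1 to 3 lower at day 9.

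Signs turned for calls that had not passed. The FGF8 effect of Fgfr2 went to 0.098 without a block, and leaving out a day gave -0.62 to 0.41 (positive without day 0). That of Fgfr3 ran from -0.63 to 0.085 (positive without day 3, at 0.046, and without day 9). Leaving out 1 library, the change by day 3 ran from -0.46 to 0.10 for Fgfr1 and from -1.25 to 0.54 for Fgf1, both positive without the FGF8 library of day 0. That of Fgf10 ran from -1.39 to 0.68, positive without the untreated library of day 0 or of day 3 (0.67). By day 9, Fgf10 ran from -1.59 to 0.24, positive without the untreated library of day 0. The cause was not tested. Total-count scaling moved the median of all genes by -0.107 in the day 3 pair and by up to -0.277 between days.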
